A study of Mus musculus with 29 samples.

Results

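The 42 genes described here are named genes of the cell cycle and of DNA replication. They were taken by symbol from a fixed list, out of 24499 gene symbols counted in mouse hypothalamus. No cutoff on measured values was applied, but the list was set with earlier results of these data known. Of the 42 genes, 13 act in S-phase, when DNA is copied, and 29 act in the entry into mitosis, in mitosis itself or in cytokinesis. The latter are called mitotic below. All 42 symbols were found in every library, and all 42 passed the filter on low counts in the fit over all ages.

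Before a cell divides it loads the MCM helicase onto replication origins, makes deoxynucleotides and copies its DNA with polymerases held by the sliding clamp PCNA. Transcription factors of the E2F family switch on the genes of S-phase, and FOXM1 and B-MYB, with the MuvB complex, switch on the later genes of G2 and mitosis. Most neurons of the hypothalamus are born before birth, whereas glia and endothelial cells still divide in the first postnatal weeks, and oligodendrocyte precursors go on dividing in the adult.

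The tissue was labelled hypothalamus, from C57BL/6 wild-type mice labelled male, and RNA was sequenced in 28 libraries. The titles of the libraries of every age but 6 months carry the letters th, tha or thal, which the labels do not explain; the tissue, source and protocol labels all name the hypothalamus. The youngest mice were of postnatal day 5 (P5; 3 libraries). They were followed by mice of 3 weeks (3 libraries), of 4 and 5 weeks (4 libraries each), of 2, 6, 12 and 18 months (3 libraries each) and of 24 months (2 libraries). The mice shared one genotype and strain, were housed singly with 12 h of light and 12 h of dark, received no treatment that the labels name, and gave their tissue in the middle of the light phase. The comparisons ask how expression of these genes changes with age, each age being set against an earlier one.

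Library depth ran between 24661631 and 39783779 gene counts. Levels are given in CPM, gene counts scaled to the library size, and a count of 3 stood for 0.075 to 0.118 CPM by library. Several libraries stood apart. In P5 replicates 1 and 2, labelled male, Xist, which coats the inactive X, reached 746 and 791 CPM, and the Y-linked gene Ddx3y had 0 counts. In P5 replicate 3 Xist was at 0.223 CPM and Ddx3y at 55.1 CPM. The salivary gene Bpifa2 stood at 33.98 to 46.99 CPM in 5 libraries, the 3 of 3 weeks with replicates 1 and 2 of 4 weeks. It had 0 counts in the remaining 4-week replicates and at 5 weeks. The 2-month libraries held 10 hypothalamic neuron markers, such as Avp and Oxt, at a sum of 148 ± 66.9 CPM, against 820 ± 188 CPM at 5 weeks, and 10 midbrain and hindbrain markers at 52.4 ± 10.8 CPM, against 12.2 ± 2.79 CPM at 5 weeks (SD, n = 3 and 4). The same hypothalamic markers summed to 191 to 293 CPM at P5 and to 407 to 1621 CPM in the libraries of the other ages. The change between P5 and 3 weeks is also given without P5 replicates 1 and 2. The F-test, the adult levels and the adult trend are also given without the 2-month libraries. For 4 against 3 and 5 against 4 weeks, fits with only part of the 4-week libraries are given. The comparison of 5 against 3 weeks could not be repeated that way, since all 3-week libraries held Bpifa2 and no 5-week library did.

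Expression of the cell cycle genes at 3 weeks was below that at P5 in 41 of the 42 genes, by edgeR's quasi-likelihood test with Benjamini-Hochberg adjustment over 16916 genes. In this comparison 59% of all genes tested differed, 29.3% being lower and 29.8% higher at 3 weeks, and the median log2 fold change was −2.13 over the 42 genes and −0.01 over all genes. All 29 mitotic genes fell, with a median log2 fold change of −2.44, and 12 of 13 S-phase genes fell, with a median of −1.51. The exception was E2f1, a transcription factor that drives entry into S-phase. Since whole tissue was sequenced, fewer dividing cells and less RNA of these genes per cell cannot be told apart. In each of the 41 genes the 3 libraries of 3 weeks lay below the 3 of P5, an arrangement seen in 33.6% of all genes tested. The 22 libraries of later ages lay below P5 in these genes as well. How many of all genes did so was not counted.

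Summed over the genes of each phase, the mitotic genes stood at 69.5, 53.7 and 51.8 CPM in the 3 libraries of 3 weeks, against 291, 348 and 267 CPM in the 3 of P5. The S-phase genes summed to 127 ± 4.1 CPM at 3 weeks, against 260 ± 29.2 CPM at P5 (SD, n = 3 each). The 3-week sum was thus 19.3% of the P5 mean for the mitotic genes and 49.1% for the S-phase genes. Sums weigh most the genes with most RNA, and Pcna and Rrm1 alone averaged 45.3 and 22.5 CPM at 3 weeks. Taken gene by gene, the median 3-week share of the P5 mean was 18.4% for the mitotic and 35.1% for the S-phase genes. The mitotic genes held 29.6 to 34.6% of both sums together at 3 weeks, against 53.1 to 54.4% at P5. In none of these sums did the libraries of the 2 ages overlap.

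**Figure D1:**
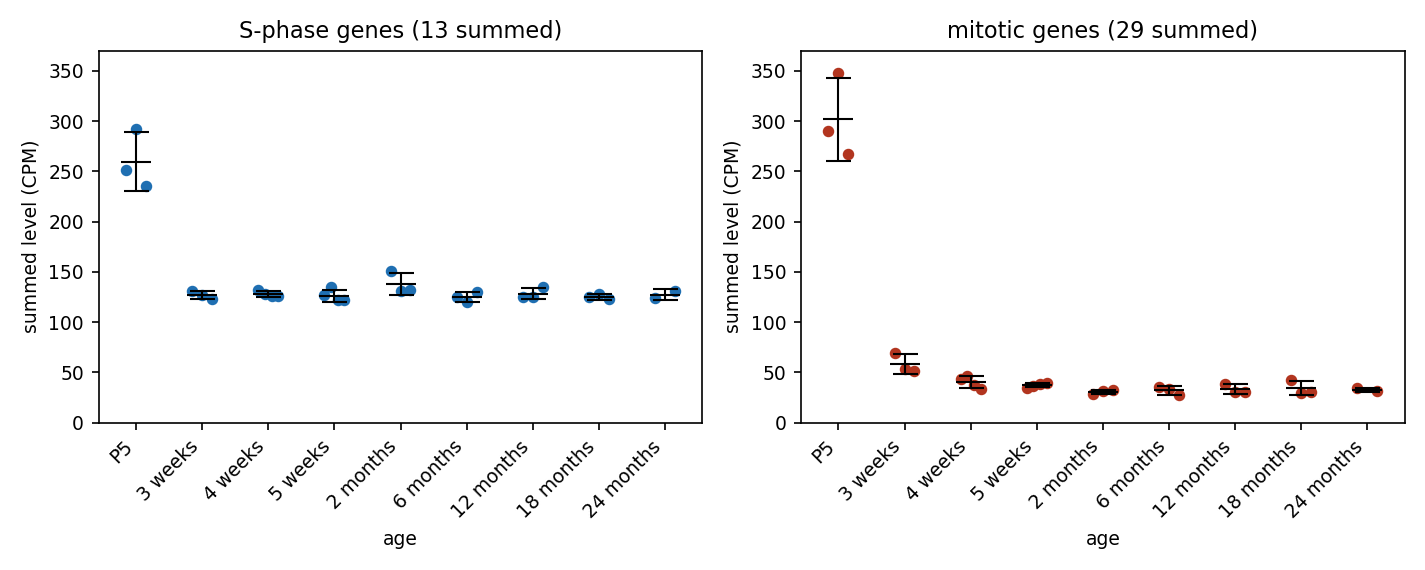
Summed CPM of the 13 S-phase genes and of the 29 mitotic genes against age, in each of the 28 libraries (points) with the mean of each age. The S-phase sum lies between 119.9 and 150.4 CPM in every library after P5, and the mitotic sum is 58.3 CPM on average at 3 weeks, 40.3 CPM at 4 weeks and 37.1 CPM at 5 weeks.

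Within P5, replicate 2 was the highest library in 40 of the 42 genes and replicate 3, the library with Y-linked RNA, was the lowest in 33. With P5 replicate 3 as the only P5 library, its spread taken as that of the other ages, the fall at 3 weeks was called in the same 12 S-phase and 29 mitotic genes, with median log2 fold changes of −1.36 and −2.37, where 45% of all genes were called. Within 3 weeks, replicate 1 was the highest in 30 of the 42 genes, 25 of them mitotic.

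The promoters are shown here because 41 of the 42 genes fell at 3 weeks, by different amounts. The promoters of such genes are known to hold words bound by E2F factors and the cell cycle genes homology region (CHR), which is bound by MuvB complexes and often lies near CCAAT boxes, the sites of NF-Y. RefSeq windows of 300 bases, from 250 before to 50 after each start, were available for 35 of the 42 genes (11 S-phase and 24 mitotic) on GRCm38.p6. They were searched on both strands for TTTCCCGC, TTTCGCGC, TTTGCCGC and TTTGGCGC (E2F), for TTTGAA and TTTAAA (CHR), and for CCAAT. An E2F word was present in 5 of 11 S-phase windows (45.5%), namely those of Mcm3, Mcm5, Mcm6, Mcm7 and Cdc6, and in 1 of 24 mitotic windows (4.17%), that of Cdk1, against 2.26% of all 32851 windows. A CHR word was present in 21 of 24 mitotic windows (87.5%) and in 3 of 11 S-phase windows (27.3%), against 27.6% of all windows. A CHR word and a CCAAT word stood together in 79.2% of the mitotic windows and 27.3% of the S-phase windows, against 10.7% of all windows. These matches describe the letters of the windows and say nothing of binding.

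The stretches from 200 bases before to 20 bases after the start are printed for the 3 S-phase genes with the highest CPM at P5 among those with a window. They are written 5′ to 3′ on the strand of the gene, with E2F, CHR and CCAAT words of either strand in capitals.
Pcna (chr2:132253161-132253380, minus strand): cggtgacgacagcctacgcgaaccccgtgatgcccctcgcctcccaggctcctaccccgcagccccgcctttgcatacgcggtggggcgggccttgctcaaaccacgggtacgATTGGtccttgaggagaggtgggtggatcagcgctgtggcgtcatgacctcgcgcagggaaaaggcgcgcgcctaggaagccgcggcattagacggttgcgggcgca
Rrm1 (chr7:102441495-102441714, plus strand): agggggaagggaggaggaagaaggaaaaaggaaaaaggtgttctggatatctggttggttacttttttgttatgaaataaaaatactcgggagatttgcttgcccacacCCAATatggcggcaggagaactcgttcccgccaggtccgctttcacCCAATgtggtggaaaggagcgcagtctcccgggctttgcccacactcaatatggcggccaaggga
Mcm6 (chr1:128359686-128359905, minus strand): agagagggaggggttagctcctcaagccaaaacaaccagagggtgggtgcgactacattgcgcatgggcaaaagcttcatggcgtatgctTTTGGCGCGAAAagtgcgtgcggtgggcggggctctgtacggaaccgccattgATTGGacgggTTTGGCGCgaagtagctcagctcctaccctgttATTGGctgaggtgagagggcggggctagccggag
In Mcm6 the E2F words begin at bases −110, −106 and −47 from the start, and the first pair overlap. Pcna and Rrm1 hold CCAAT words and none of the E2F or CHR words searched for.

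For the mitotic genes the same stretches are printed for the 3 with the highest CPM at P5 among those with a window, and for Ube2c, which was chosen after its values were seen.
Top2a (chr11:99024170-99024389, minus strand): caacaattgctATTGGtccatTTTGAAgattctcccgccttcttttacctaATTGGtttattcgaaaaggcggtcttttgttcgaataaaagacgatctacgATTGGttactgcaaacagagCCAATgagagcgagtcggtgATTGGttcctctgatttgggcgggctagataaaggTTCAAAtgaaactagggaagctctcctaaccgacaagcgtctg
Mki67 (chr7:135716360-135716579, minus strand): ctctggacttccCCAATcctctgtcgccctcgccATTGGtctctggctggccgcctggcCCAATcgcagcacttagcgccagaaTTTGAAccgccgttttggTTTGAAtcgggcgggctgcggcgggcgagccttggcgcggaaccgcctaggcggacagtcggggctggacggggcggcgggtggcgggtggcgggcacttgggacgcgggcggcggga
Prc1 (chr7:80294251-80294470, plus strand): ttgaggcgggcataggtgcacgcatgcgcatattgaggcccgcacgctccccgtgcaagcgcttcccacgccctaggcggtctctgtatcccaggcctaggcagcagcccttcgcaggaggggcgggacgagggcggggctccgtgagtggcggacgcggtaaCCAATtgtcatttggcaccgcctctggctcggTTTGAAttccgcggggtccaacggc
Ube2c (chr2:164769729-164769948, plus strand): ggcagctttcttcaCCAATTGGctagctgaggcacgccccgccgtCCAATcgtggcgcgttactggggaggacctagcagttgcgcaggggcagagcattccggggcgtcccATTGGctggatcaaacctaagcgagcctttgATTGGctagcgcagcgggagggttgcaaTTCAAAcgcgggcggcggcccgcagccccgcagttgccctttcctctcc
In Top2a the CHR words begin at bases −179 and −23, and 4 CCAAT words stand between them. In Mki67 the CHR words begin at bases −116 and −98, downstream of 3 CCAAT words. In Ube2c the CHR word begins at base −29, and 2 CCAAT words of opposite strands overlap near the 5′ end of the stretch.

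Among the S-phase genes, the 6 subunits of the MCM helicase, which unwinds DNA at the replication fork, fell to different degrees. Mcm6 stood at 9.62, 11.3 and 7.95 CPM at 3 weeks, against 33.4, 38.6 and 32.3 CPM at P5, a log2 fold change of −1.86 ± 0.13 (SE; adjusted p = 1.147e-11). Mcm2 stood at 6.04, 5.92 and 4.94 CPM at 3 weeks, against 14.8, 18.7 and 14.4 CPM at P5 (−1.50 ± 0.13; adjusted p = 4.409e-10). In both genes every 3-week library lay well below every P5 library. Mcm5 stood at 5.50, 3.90 and 4.14 CPM at 3 weeks, against 15.5, 19.7 and 13.9 CPM at P5 (−1.85 ± 0.17), and Mcm3 fell by a similar amount (−1.76 ± 0.17). Mcm7 and Mcm4 fell least among the 6, with log2 fold changes of −0.76 ± 0.11 and −0.75 ± 0.12. The 6 subunits work in one complex, yet their 3-week level as a share of the P5 level was 27.6% for Mcm5 and Mcm6 and 59.5% for Mcm4. Of the bases in Mcm7 exons, 12.6% also lie in exons of other genes, among them Ap4m1 and Cops6 on the opposite strand, and whether reads were counted by strand is not given.

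The genes of deoxynucleotide supply also differed among themselves. Rrm2, the small subunit of ribonucleotide reductase and the one known to be made in S-phase, stood at 2.71, 2.42 and 2.20 CPM at 3 weeks, against 18.3, 21.3 and 14.7 CPM at P5 (−2.89 ± 0.24; adjusted p = 1.768e-10). Rrm1, the large subunit of the same enzyme, stood at 23.4, 22.3 and 21.9 CPM at 3 weeks, against 41.1, 43.1 and 39.3 CPM at P5 (−0.87 ± 0.06; adjusted p = 6.353e-12). Neither gene's libraries overlapped between the ages, and the 3-week mean was 13.5% of the P5 mean for Rrm2 and 54.8% for Rrm1. Tyms, which makes thymidylate, fell by 1.51 ± 0.21 on the log2 scale.

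Cdc6, which loads the helicase onto origins, and Gins2, a part of the active helicase, fell by 1.64 ± 0.31 and 2.15 ± 0.27 on the log2 scale. The exons of Gins2 share 67.3% of their bases with Gse1 on the opposite strand, so its counts are uncertain. Pcna fell least of the called genes. It stood at 46.0, 44.3 and 45.4 CPM at 3 weeks, against 61.7, 69.5 and 57.7 CPM at P5 (−0.48 ± 0.09; adjusted p = 9.635e-05), again without overlap. Per kilobase of exon, Pcna was the highest of the 42 genes at P5, at 26.2 CPM per kb, followed by Mcm6 at 7.46 and Rrm2 at 6.54 CPM per kb. The length takes in the exons of all annotated transcripts, 11012 bases for Rrm1, so this order depends on the annotation.

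E2f1 did not show this pattern. It stood at 7.61, 5.06 and 9.08 CPM at 3 weeks, against 6.29, 8.37 and 7.18 CPM at P5, and the libraries of both ages overlapped. The log2 fold change was −0.00 ± 0.25 (adjusted p = 0.991), and over all 9 ages E2f1 was also the one gene of the 42 not called by the F-test (adjusted p = 0.0982).

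Among the mitotic genes, the largest falls on the log2 scale were those of Mki67, Bub1, Cdk1, Ccnb1, Ube2c and Top2a. Mki67 encodes Ki-67, the coat protein of mitotic chromosomes that is widely used as a marker of dividing cells. It stood at 5.44, 2.42 and 2.44 CPM at 3 weeks, against 29.8, 37.2 and 24.97 CPM at P5 (−3.15 ± 0.29; adjusted p = 1.293e-09). Top2a, the topoisomerase that untangles sister DNA, stood at 6.38, 5.06 and 3.69 CPM at 3 weeks, against 31.97, 44.4 and 33.3 CPM at P5 (−2.86 ± 0.26; adjusted p = 9.202e-10). Replicate 1 was the highest of the 3-week libraries in both genes, and it too lay far below P5.

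The kinase Cdk1 and its cyclins drive entry into mitosis. Cdk1 stood at 1.35, 0.939 and 1.04 CPM at 3 weeks, against 8.93, 10.6 and 7.93 CPM at P5 (−3.03 ± 0.30; adjusted p = 5.319e-09). Ccnb1, encoding cyclin B1, stood at 1.62, 1.16 and 1.43 CPM at 3 weeks, against 12.0, 12.3 and 8.85 CPM at P5 (−2.97 ± 0.48; adjusted p = 1.134e-05). Ccna2 (−2.82 ± 0.27) and Ccnb2 (−2.22 ± 0.29) fell as well, so that all 4 genes of this group fell more than 4-fold.

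At the centromere and kinetochore, where the spindle attaches, Cenpf fell with the smallest p among the mitotic genes. It stood at 2.83, 1.91 and 1.84 CPM at 3 weeks, against 13.8, 17.7 and 12.6 CPM at P5 (−2.74 ± 0.23; adjusted p = 3.711e-10), without overlap. The motor Cenpe (−2.83 ± 0.27) and the centromeric histone Cenpa (−2.09 ± 0.27) fell too. Of the spindle checkpoint kinases, Bub1 fell by 3.07 ± 0.38 and Bub1b by 1.81 ± 0.40 on the log2 scale.

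Foxm1, the transcription factor of G2 and mitosis genes, stood at 1.92, 2.09 and 2.20 CPM at 3 weeks, against 9.56, 9.03 and 8.55 CPM at P5 (−2.12 ± 0.19; adjusted p = 6.375e-10). Mybl2, encoding B-MYB, fell by 2.36 ± 0.37 on the log2 scale. Both factors fell, and E2f1 was not called; the difference between these genes was not tested.

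The chromosomal passenger complex, which corrects spindle attachments, is represented by Aurkb (−2.79 ± 0.38), Cdca8 (−2.74 ± 0.30) and Birc5 (−2.14 ± 0.33), and all 3 fell. The mitotic kinases Aurka (−1.19 ± 0.19) and Plk1 (−1.25 ± 0.21) and the kinesin Kif20a (−1.42 ± 0.21) fell least among the mitotic genes. Exons of Kif20a share 29.3% of their bases with Cdc23 on the opposite strand. The other kinesins, Kif2c (−2.74 ± 0.43), Kif23 (−2.18 ± 0.28) and Kif11 (−1.95 ± 0.22), fell more.

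Of the genes of the spindle and of cytokinesis, Ect2, which sets the cleavage plane, fell by 2.64 ± 0.30, Prc1, which bundles the central spindle, by 2.44 ± 0.31, Tpx2 by 2.03 ± 0.20 and Nusap1 by 1.66 ± 0.18 on the log2 scale. Ube2c, Cdca3 and Cdc20 act in the destruction of mitotic proteins. Ube2c, the ubiquitin-conjugating enzyme of the anaphase-promoting complex, stood at 1.32, 1.16 and 1.22 CPM at 3 weeks, against 8.89, 11.6 and 8.10 CPM at P5 (−2.94 ± 0.27; adjusted p = 1.414e-09). Its exons share 22.8% of their bases with Tnnc2 on the opposite strand. Cdca3 (−2.51 ± 0.25) and Cdc20 (−1.91 ± 0.26) fell as well.

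**Figure D2:**
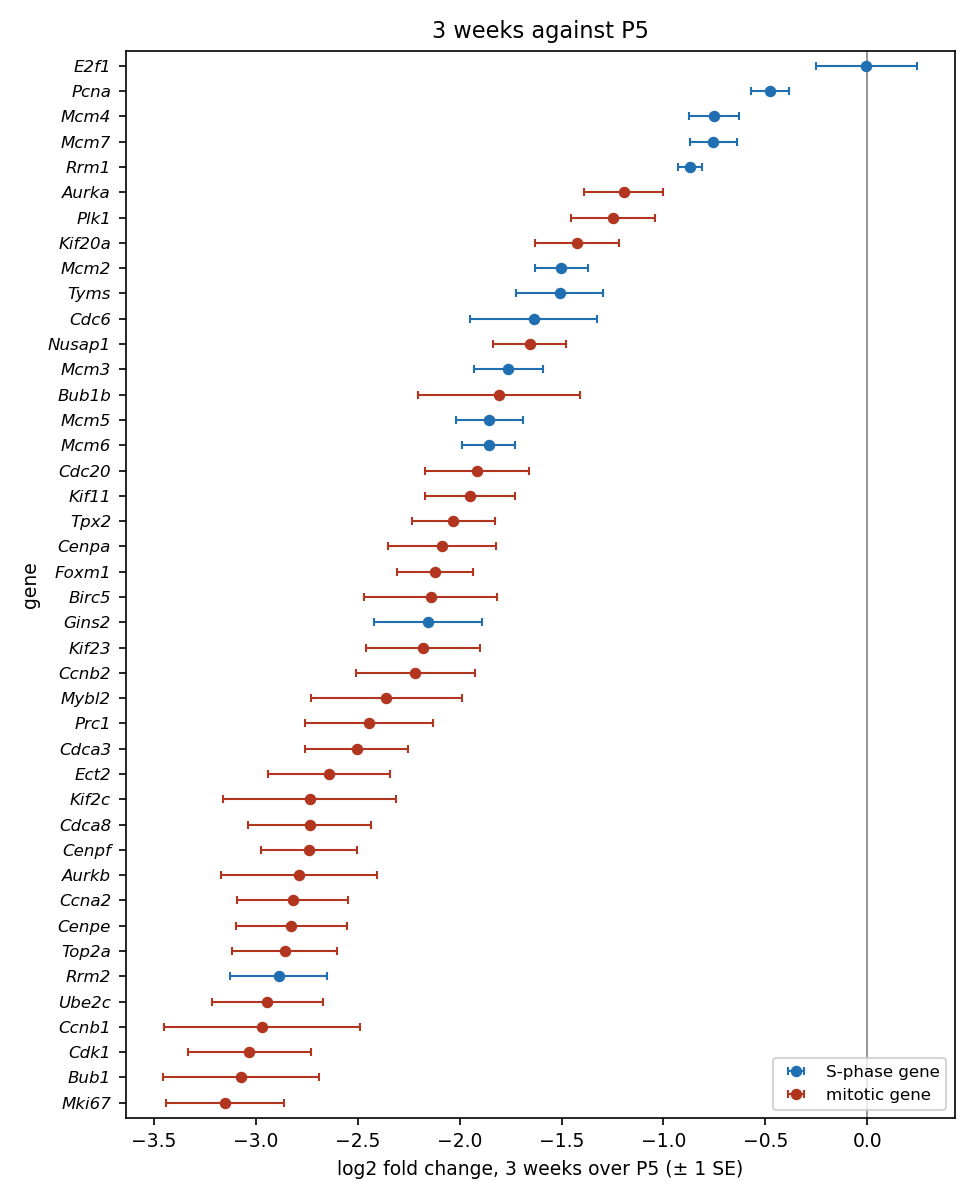
Log2 fold change of each of the 42 genes at 3 weeks over P5, with bars of 1 SE, ordered by size and coloured by phase. Mki67 lies lowest at −3.15, Pcna is the called gene nearest to 0 at −0.48, and E2f1 lies at 0.

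Other genes of the same processes were counted as well. Of 31 other DNA replication genes tested, 23 fell and 2 rose at 3 weeks, with a median log2 fold change of −0.91. Those with the smallest p were Lig1, the ligase that joins Okazaki fragments (−1.15 ± 0.11), Uhrf1, which maintains DNA methylation at the fork (−2.67 ± 0.26), Prim1, a primase subunit (−1.34 ± 0.13), and Orc6, an origin recognition subunit (−0.77 ± 0.08). The 2 that rose, named after their values were seen, were Gins4 (0.38 ± 0.12) and Ccne1 (0.57 ± 0.13).

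Of 35 other mitosis genes tested, 31 fell and 4 rose, with a median log2 fold change of −1.78. The smallest p belonged to Racgap1, a cytokinesis regulator (−1.56 ± 0.11), the condensin subunits Smc2 (−1.32 ± 0.12) and Smc4 (−1.12 ± 0.11), and Anln, encoding the cytokinesis protein anillin, which rose (2.15 ± 0.19). The other risers, named after their values were seen, were Cit (1.38 ± 0.20), Pttg1 (0.92 ± 0.11) and Bub3 (0.30 ± 0.06). Because of such genes the summed CPM of this list was 104% of the P5 mean at 3 weeks, while that of the other DNA replication genes was 59.95%.

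Markers of several cell types moved between the same 2 ages. The 9 markers of neural progenitors and radial glia, such as Nes and Sox2, summed to 350.5 to 388 CPM at 3 weeks, against 1222 to 1326 CPM at P5, and 7 of 9 fell. The 10 of immature neurons, such as Dcx and Dlx1, summed to 1516 to 1621 CPM, against 4540 to 4648 CPM at P5, and 8 of 10 fell. Both lists thus moved in the direction of the cell cycle genes, their sums to 28.8% and 34.4% of the P5 mean. Such sums weigh most the markers with most RNA. The median log2 fold change was −0.64 over the 9 progenitor markers and −1.25 over the 10 of immature neurons. It was −2.44 over the mitotic genes and −1.51 over the S-phase genes.

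Other cell type lists moved differently. The 10 markers of oligodendrocyte precursors summed to 970 to 1077 CPM at 3 weeks, against 693 to 815 CPM at P5, with 5 higher and 3 lower. The 10 of endothelial cells summed to 337 to 360 CPM, against 205 to 218 CPM at P5 (6 higher, 0 lower), and the 10 of microglia to 355 to 399 CPM, against 175 to 192 CPM at P5 (10 higher). The 7 markers of mature oligodendrocytes, such as Mbp, summed to 12467 to 15014 CPM, against 152 to 225 CPM at P5 (7 higher). No marker of these 6 lists had a mean of 0 at either age. The precursor markers did not all vary together among the 14 adult libraries. Olig1, Olig2, Sox10, Matn4 and C1ql1 were highest in 2-month replicate 11, where Mbp was highest too. Pdgfra, Cspg4 and Vcan were lowest in that library. The precursor sum thus cannot be read as the amount of precursors alone. The part of any of these cell types in the fall of the cell cycle genes was not tested.

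**Figure D3:**
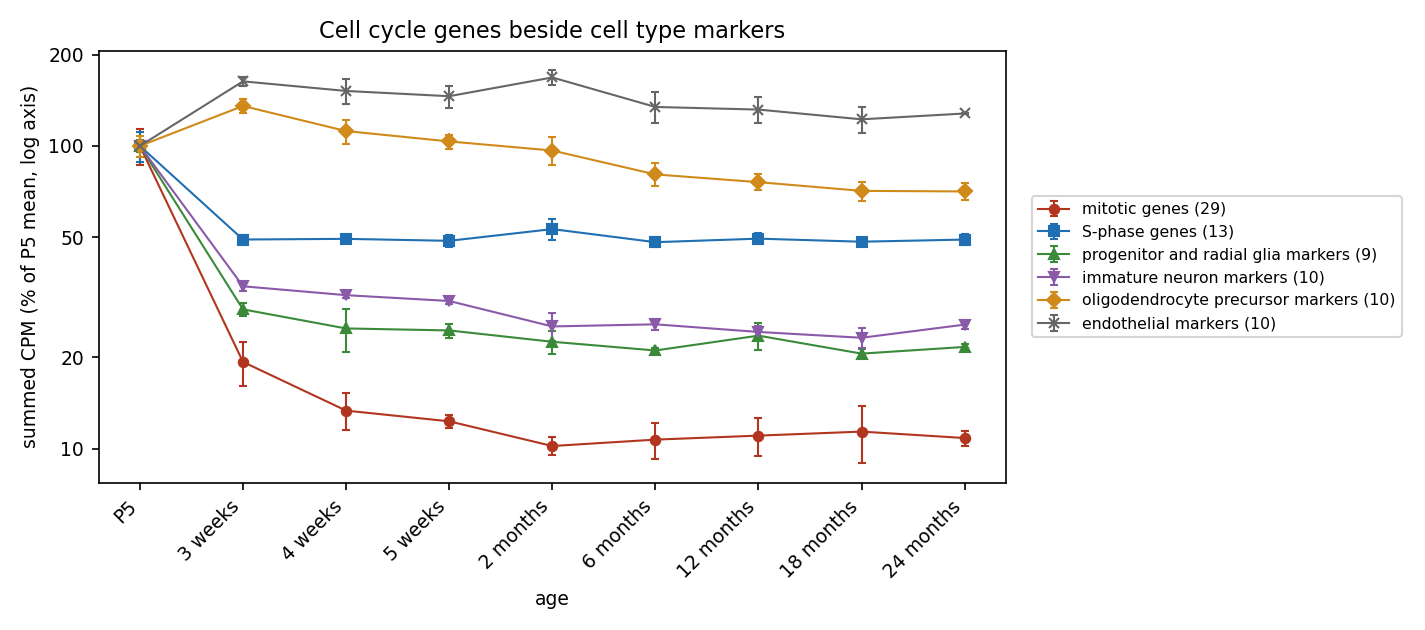
Summed CPM at each age as a percentage of the P5 mean, on a log axis, for the S-phase genes, the mitotic genes and 4 cell type marker lists, with bars of 1 SD between libraries. The mitotic line lies at 19.3% at 3 weeks and near 11% in adults, the progenitor line at 28.8% at 3 weeks, and the oligodendrocyte precursor line at 135.5% at 3 weeks and 70.7% at 24 months. Markers of the precursor list did not all vary together among adult libraries.

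Between 3 and 5 weeks 6 mitotic genes fell further, and no S-phase gene was called. The mitotic sum was 58.3 ± 9.68 CPM at 3 weeks, 40.3 ± 5.63 at 4 weeks and 37.1 ± 1.96 CPM at 5 weeks, and the S-phase sum was 127 ± 4.1, 128 ± 2.78 and 126 ± 6.04 CPM (SD, n = 3, 4 and 4). At 4 against 3 weeks, Top2a and Ube2c were the 2 of 42 genes called lower, where 0.502% of all genes were called and 0.319% were lower. The log2 fold change was negative in 28 of 29 mitotic genes, with a median of −0.57, and 12 of them had an unadjusted p below 0.05, as did 11.6% of all genes. Over the S-phase genes the median was −0.00, with 7 of 13 negative, and over all genes it was −0.00.

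Top2a stood at 2.62, 2.98, 1.71 and 1.71 CPM at 4 weeks, against 6.38, 5.06 and 3.69 CPM at 3 weeks (−1.15 ± 0.24; adjusted p = 0.0295). Ube2c stood at 0.610, 0.657, 0.370 and 0.484 CPM at 4 weeks, against 1.32, 1.16 and 1.22 CPM at 3 weeks (−1.20 ± 0.28; adjusted p = 0.0484). The call of Ube2c was lost in 13 of 14 alternatives, among them DESeq2, DESeq2's size factors and no filter on low counts, with an adjusted p of up to 0.407. The libraries of the 2 ages did not overlap in either gene, an arrangement, with 4 weeks lower, seen in 6.6% of all genes tested. Aurkb, next by p, stood at 0.366, 0.219, 0.134 and 0.223 CPM, against 1.08, 0.470 and 0.446 CPM at 3 weeks (−1.48 ± 0.42), and was not called (adjusted p = 0.142).

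Mki67, at 2.71, 1.67, 1.58 and 1.19 CPM at 4 weeks, against 5.44, 2.42 and 2.44 CPM at 3 weeks, overlapped between the ages and was not called (−0.94 ± 0.27; adjusted p = 0.149). The S-phase genes with the smallest p were Rrm1 (0.11 ± 0.06), Mcm2 (−0.22 ± 0.12) and Cdc6 (−0.58 ± 0.32), with adjusted p of 0.445, 0.495 and 0.496. Rrm1 stood at 23.8, 23.9, 25.1 and 24.8 CPM at 4 weeks, each above the 3-week libraries of 23.4, 22.3 and 21.9 CPM. The share of all genes with 4 weeks higher in this way was not counted. Mcm2 stood at 5.30, 4.79, 3.90 and 5.28 CPM at 4 weeks, against 6.04, 5.92 and 4.94 CPM at 3 weeks, with overlap. Cdc6 stood at 0.610, 0.356, 0.572 and 0.484 CPM, against 0.662, 0.795 and 0.803 CPM at 3 weeks, without overlap. Of the 31 other DNA replication genes and the 35 other mitosis genes, edgeR called 0, with 2 and 13 at an unadjusted p below 0.05.

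Cdk1, Ccnb1, Rrm2, Pcna and E2f1 were not called at 4 weeks. Cdk1 stood at 0.610, 0.739, 0.437 and 0.335 CPM at 4 weeks, against 1.35, 0.939 and 1.04 CPM at 3 weeks (−1.04 ± 0.31; adjusted p = 0.158). Ccnb1 stood at 0.853, 0.657, 0.874 and 0.112 CPM, against 1.62, 1.16 and 1.43 CPM at 3 weeks (−1.15 ± 0.49; adjusted p = 0.354). In both genes the 4-week libraries lay below the 3-week libraries. Rrm2 stood at 2.26, 1.94, 1.95 and 1.64 CPM, against 2.71, 2.42 and 2.20 CPM at 3 weeks (−0.32 ± 0.23), Pcna at 44.99, 44.9, 48.1 and 43.5 CPM, against 46.0, 44.3 and 45.4 CPM (0.00 ± 0.09), and E2f1 at 9.54, 8.71, 6.39 and 8.23 CPM, against 7.61, 5.06 and 9.08 CPM (0.18 ± 0.23). These 3 overlapped between the ages. Without 3-week replicate 1 or 2, or 4-week replicate 1, 3 or 4, edgeR called 0 of the 42 genes at 4 weeks, and without 3-week replicate 3 it called Top2a.

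At 5 against 4 weeks, 0 of the 42 genes were called by edgeR and 0 by DESeq2, where edgeR called 0.0236% of all genes. At an unadjusted p below 0.05, where 8.13% of all genes stood, there were 2, Ccnb2 (−0.82 ± 0.30; adjusted p = 0.486) and Ube2c (−0.65 ± 0.31; adjusted p = 0.601). Ccnb2 stood at 0.701, 0.710, 0.542 and 0.394 CPM at 5 weeks, against 0.884, 1.397, 0.672 and 1.19 CPM at 4 weeks, with overlap. Cenpf (−0.45 ± 0.22), Mcm2 (0.24 ± 0.12), Rrm2 (−0.44 ± 0.22) and Mcm6 (0.16 ± 0.11) came next by p in their phases, with overlapping libraries in all 4. Mcm6 stood at 11.3, 10.6, 9.45 and 8.16 CPM at 5 weeks, against 9.85, 9.42, 7.87 and 8.19 CPM at 4 weeks. Mcm2 stood at 5.84, 6.05, 5.66 and 5.16 CPM at 5 weeks, Pcna at 41.3, 47.8, 42.03 and 41.8 CPM, and E2f1 at 8.64, 9.12, 7.90 and 6.98 CPM, each overlapping its 4-week range.

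Over the 2 weeks together, 6 of the 42 genes were lower at 5 than at 3 weeks, and all 6 were mitotic. In this comparison 2.15% of all genes were called and 1.45% were lower. Ube2c stood at 0.234, 0.262, 0.387 and 0.465 CPM at 5 weeks, against 1.32, 1.16 and 1.22 CPM at 3 weeks (−1.86 ± 0.30; adjusted p = 0.000756). Top2a stood at 1.21, 2.06, 1.47 and 2.29 CPM, against 6.38, 5.06 and 3.69 CPM at 3 weeks (−1.51 ± 0.25; adjusted p = 0.000891). Mki67 stood at 0.856, 1.83, 1.47 and 1.396 CPM, against 5.44, 2.42 and 2.44 CPM at 3 weeks (−1.31 ± 0.28; adjusted p = 0.0111). In all 3 genes each 5-week library lay below each 3-week library, as in 8.8% of all genes tested.

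The other 3 were Kif11, Cenpf and Ccnb2. Kif11, a kinesin that pushes spindle poles apart, stood at 1.87, 2.06, 1.70 and 2.11 CPM at 5 weeks, against 4.84, 3.504 and 3.24 CPM at 3 weeks (−0.996 ± 0.22; adjusted p = 0.0115). Cenpf stood at 0.701, 1.20, 1.08 and 1.32 CPM, against 2.83, 1.91 and 1.84 CPM at 3 weeks (−1.02 ± 0.23; adjusted p = 0.0169). Ccnb2, encoding cyclin B2, had a log2 fold change of −1.24 ± 0.31 (adjusted p = 0.0292). These libraries did not overlap between the ages either. Without 3-week replicate 1, the library with the most mitotic RNA of its age, edgeR called 2 of the 42 genes, Top2a (−1.31) and Ube2c (−1.80), and without 5-week replicate 1 it called 3.

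Over the S-phase genes the median log2 fold change from 3 weeks was 0.02, and over the mitotic genes it was −0.64. Rrm2, at 1.012, 1.38, 1.28 and 2.04 CPM at 5 weeks, lay below its 3-week libraries of 2.71, 2.42 and 2.20 CPM but was not called (−0.77 ± 0.23; adjusted p = 0.102). Cdc6 (−0.43 ± 0.32) and Rrm1 (0.06 ± 0.06) followed by p. Cdc6 stood at 0.623, 0.635, 0.542 and 0.430 CPM at 5 weeks, below the 3-week libraries of 0.662, 0.795 and 0.803 CPM, and Rrm1 at 24.99, 23.8, 21.8 and 23.3 CPM, against 23.4, 22.3 and 21.9 CPM at 3 weeks. Ccnb1, at 0.311, 0.598, 0.116 and 0.537 CPM (−1.83 ± 0.53; adjusted p = 0.0783), and Cdk1, at 0.662, 0.486, 0.813 and 0.394 CPM (−0.92 ± 0.31; adjusted p = 0.167), also lay below their 3-week libraries and were not called. Of the other mitosis genes, Ckap2 (−1.02 ± 0.22) and Aspm (−1.23 ± 0.31), both spindle proteins, fell, and 0 of the 31 other DNA replication genes were called by edgeR, with 3 at an unadjusted p below 0.05, where 11.7% of all genes stood.

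The 4-week libraries divide into those with and those without Bpifa2 RNA, and the comparisons were repeated within each division. The division was also seen in other measures. Over the libraries of 3 to 5 weeks, those with Bpifa2 held the noncoding RNA gene Rn7s2 at 1.45 to 2.11 CPM and lost 6.59 to 7.30% of their reads to low alignment quality, and those without it held Rn7s2 at 21.7 to 29.6 CPM and lost 9.19 to 11.2%. The part of these measures in the mitotic fall was not tested. Among the libraries with Bpifa2, 4-week replicates 1 and 2 against 3 weeks gave a median of −0.33 over the mitotic genes, with 27 of 29 negative, 0 called by edgeR and 6 at an unadjusted p below 0.05. This fit called 0.0473% of all genes and had 9.07% at an unadjusted p below 0.05. Among the libraries without it, 5 weeks against 4-week replicates 3 and 4 gave a median of 0.00, with 14 of 29 negative and 0 called by edgeR (0 at an unadjusted p below 0.05), where 0.166% of all genes were called and 7.53% had such a p. With all 4-week libraries that median was −0.165, with 21 of 29 negative. Within 4 weeks, replicates 3 and 4 against replicates 1 and 2 gave a median of −0.52, with 24 of 29 negative and 0 called by edgeR (2 at an unadjusted p below 0.05), where 0.195% of all genes were called and 6.55% had such a p. All 3 fits thus called few genes of any kind. For Top2a the first of these log2 fold changes was −0.84 ± 0.27 and the second 0.04 ± 0.29. With this division as a term in the fit, edgeR called 0 of the 41 genes tested in each of the 3 comparisons, and 14, 9 and 32 of all 15950 genes at 4 against 3, 5 against 4 and 5 against 3 weeks. All 3-week libraries hold Bpifa2 and no 5-week library does, so age and this division cannot be told apart between 3 and 5 weeks.

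Other markers also moved between 3 and 5 weeks. The oligodendrocyte precursor markers summed to 783 ± 41.3 CPM at 5 weeks, against 1025 ± 53.7 CPM at 3 weeks, and 4 of 10 fell. Those of newly formed oligodendrocytes summed to 813 ± 50.8 CPM, against 996 ± 67.3 CPM at 3 weeks, and 6 of 8 fell. Red blood cell markers summed to 181 ± 39.6 CPM, against 605 ± 201 CPM at 3 weeks, and 7 of 8 fell (SD, n = 4 and 3 throughout). Their part in the fall of the 6 mitotic genes was not tested.

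Between 5 weeks and 2 or 6 months, the share of the 42 genes called lower was below or near that of all genes. At 2 months against 5 weeks, 2 of the 42 genes were lower, where 16.6% of all genes were called and 9.43% were lower. Top2a stood at 0.653, 0.532 and 0.967 CPM at 2 months, against 1.21, 2.06, 1.47 and 2.29 CPM at 5 weeks (−1.31 ± 0.31; adjusted p = 0.00498), without overlap, as in 13.5% of all genes tested. Plk1, a kinase of spindle assembly and mitotic exit, stood at 1.49, 2.19 and 1.74 CPM, against 3.81, 2.17, 4.57 and 3.62 CPM at 5 weeks (−0.96 ± 0.21; adjusted p = 0.00313), with 1 library of 5 weeks inside the 2-month range. Cdk1 came next, at 0.544, 0.177 and 0.193 CPM, against 0.662, 0.486, 0.813 and 0.394 CPM at 5 weeks (−0.95 ± 0.38; adjusted p = 0.0861). The S-phase genes with the smallest p were higher at 2 months and not called: Mcm4 (0.24 ± 0.11), Mcm7 (0.23 ± 0.11) and Pcna (0.16 ± 0.09). Mcm4 stood at 10.7, 12.8 and 12.7 CPM at 2 months, against 9.38, 11.1, 9.53 and 10.7 CPM at 5 weeks. Mcm7 stood at 17.7, 13.6 and 14.3 CPM, against 13.4, 12.3, 13.2 and 13.1 CPM at 5 weeks, and Pcna at 56.6, 43.1 and 44.8 CPM, against 41.3, 47.8, 42.03 and 41.8 CPM. Of these 3, Mcm7 alone had no overlap, and replicate 11 was its highest library and that of Pcna. How many of all genes were higher at 2 months without overlap was not counted.

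The 2-month libraries are those low in hypothalamic neuron markers, 9 of 10 of which were lower than at 5 weeks, and the part of this in the 2 calls was not tested. For this reason 6 months was set against 5 weeks as well. Here 4 of the 42 genes were lower, where 13% of all genes were called and 8.39% were lower. Top2a stood at 0.950, 0.658 and 0.654 CPM at 6 months, against 1.21, 2.06, 1.47 and 2.29 CPM at 5 weeks (−1.20 ± 0.30; adjusted p = 0.00886). Cenpa stood at 0.625, 0.494 and 0.360 CPM, against 0.701, 1.08, 1.16 and 1.18 CPM at 5 weeks (−1.04 ± 0.30; adjusted p = 0.0215). Tpx2, which nucleates spindle microtubules, stood at 1.73, 1.94 and 1.15 CPM, against 2.26, 2.77, 2.52 and 2.90 CPM at 5 weeks (−0.70 ± 0.21; adjusted p = 0.0279). In these 3 genes every 6-month library lay below every 5-week library, as in 16.5% of all genes tested.

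Ube2c was the remaining called gene, at 0.125, 0.165 and 0.131 CPM at 6 months, against 0.234, 0.262, 0.387 and 0.465 CPM at 5 weeks (−1.26 ± 0.41; adjusted p = 0.0421). These levels are close to that of 3 counts, and the call was lost in 7 of 10 alternatives, among them no filter on low counts and DESeq2, which called Cdk1 (−1.09) in its place. Cdc6 (−0.93 ± 0.36), Mcm4 (0.28 ± 0.11) and Mcm6 (−0.24 ± 0.12) led the S-phase genes by p, and none was called. Cdc6 stood at 0.225, 0.362 and 0.2945 CPM at 6 months, against 0.623, 0.635, 0.542 and 0.430 CPM at 5 weeks, and Mcm4 at 14.4, 11.5 and 11.3 CPM, against 9.38, 11.1, 9.53 and 10.7 CPM, both without overlap. For the higher direction, that of Mcm4, the share of all genes without overlap was not counted. Mcm6 stood at 7.30, 8.89 and 9.03 CPM, against 11.3, 10.6, 9.45 and 8.16 CPM at 5 weeks, with overlap. Without 5-week replicate 3 or without 6-month replicate 34, edgeR called 1 of the 42 genes, Top2a, and without 5-week replicate 4 or 6-month replicate 33 it called 2. Plk1, at 2.50, 3.62 and 3.17 CPM at 6 months, lay within the range of 5 weeks. Midbrain and hindbrain markers summed to 31.8 ± 32.4 CPM at 6 months, against 12.2 ± 2.79 CPM at 5 weeks (SD, n = 3 and 4). Mature oligodendrocyte markers summed to 7170 ± 1396 CPM, against 10525 ± 1159 CPM at 5 weeks, and 5 of 7 were lower. Newly formed oligodendrocyte markers summed to 687 ± 87.0 CPM, against 813 ± 50.8 CPM, with 4 of 8 lower, and oligodendrocyte precursor markers to 609 ± 53.3 CPM, against 783 ± 41.3 CPM, with 3 of 10 lower. The part of these lists in the 4 calls was not tested. Among the other mitosis genes, Anln rose and Pbk, a mitotic kinase, fell at both ages: Anln by 1.12 ± 0.16 and 0.67 ± 0.16, and Pbk with −1.60 ± 0.45 and −1.30 ± 0.42, at 2 and 6 months. Of the other DNA replication genes, Tipin, a fork protein, rose at both ages (0.33 ± 0.10 and 0.40 ± 0.09), and Pola1, a polymerase subunit, rose at 2 months (0.40 ± 0.14).

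**Figure D4:**
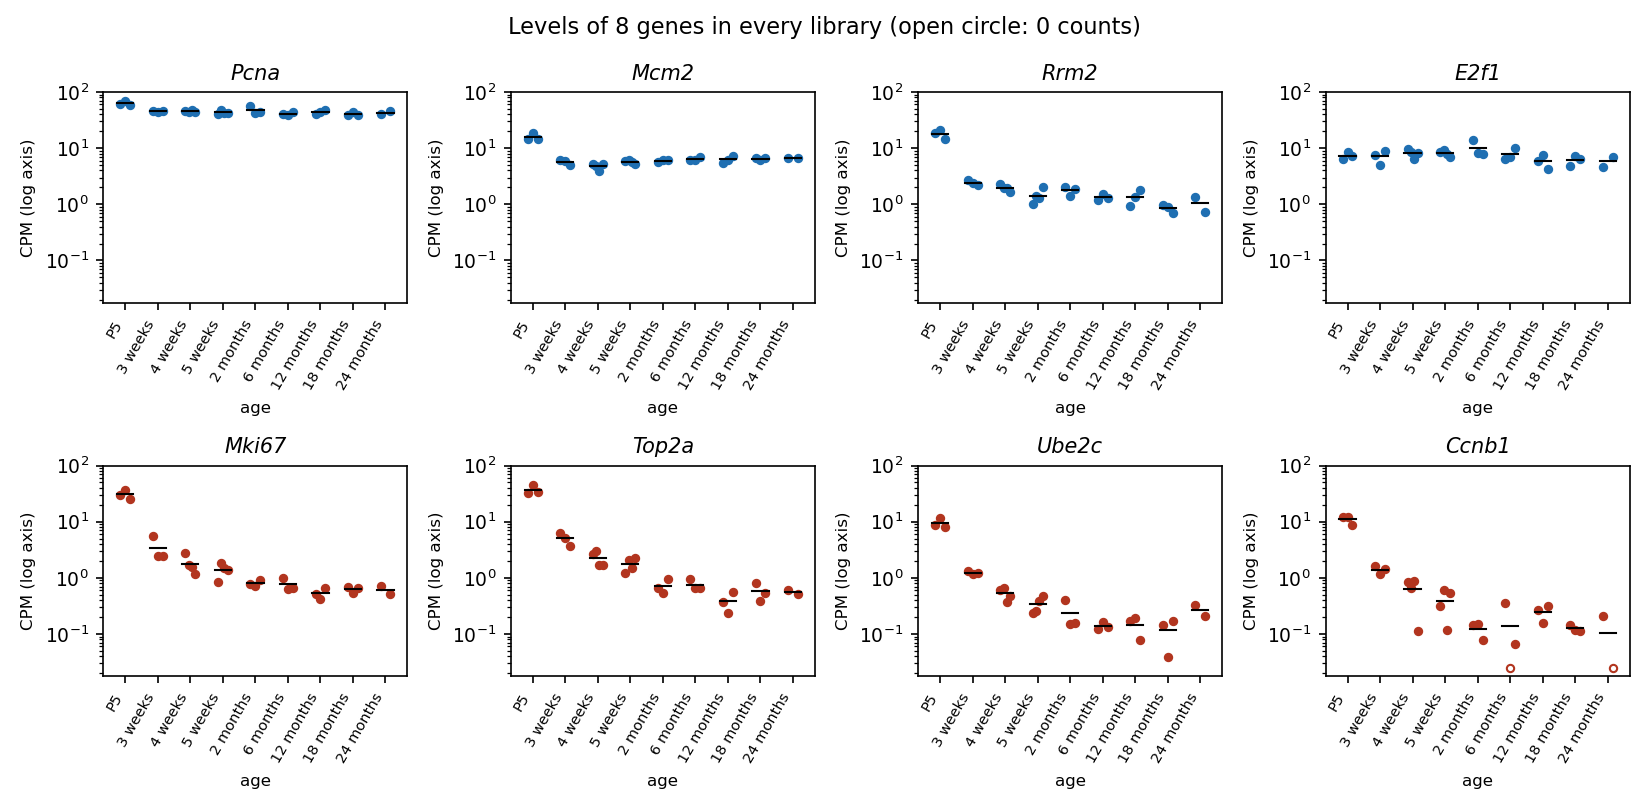
CPM of 8 genes in each of the 28 libraries by age, on a log axis, with a line at the mean of each age and an open circle for a library with 0 counts. Top2a averages 5.04 CPM at 3 weeks, 2.26 at 4 weeks, 1.76 at 5 weeks and 0.717 at 2 months, Pcna 45.3, 45.4, 43.2 and 48.2 CPM at the same ages, and 2 adult libraries hold 0 counts of Ccnb1.

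An F-test over the 9 ages called 41 of the 42 genes, where 76.8% of all genes were called. Over 3 weeks to 24 months, with P5 kept in the fit but not in the hypothesis, it called 22, where 44.9% of all genes were called. These 22 were 18 of 29 mitotic genes and 4 of 13 S-phase genes (Mcm2, Mcm4, Cdc6 and Rrm2). The F-test has no direction. Mcm4 averaged 10.03 CPM at 3 weeks and 12.5 CPM over the 5 adult ages, and Mcm2 averaged 5.64 and 6.37 CPM. Both were thus higher in adults, whereas Cdc6 (0.753 and 0.340 CPM) and Rrm2 (2.44 and 1.28 CPM) were lower. Among the 18 mitotic genes, Ccnb1, Bub1, Aurkb and Kif2c did not pass the filter on low counts in the adult libraries alone. The smallest adjusted p were those of Top2a (3.405e-09), Ube2c (3.047e-07) and Mki67 (1.597e-06). The share of the 42 genes was thus near that of all genes. Without the 2-month libraries 21 were called, where 41.8% of all genes were, and without both the 2-month and the 3-week libraries 10, where 33.2% of all genes were, namely Mcm2, Mcm4, Rrm2, Mki67, Top2a, Cdk1, Cenpa, Cenpf, Tpx2 and Ube2c.

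The level left in the adult differed widely among the genes. The mean of the 5 adult ages was, at the median, 40.0% of the P5 mean for the S-phase genes and 10.5% for the mitotic genes, against 103% for all genes tested. Without the 2-month libraries these medians were 40.65%, 10.3% and 102.8%, and the value of each of the 42 genes was 0.897 to 1.11 times that with them. Lowest were Ccnb1 at 1.33%, Top2a at 1.64%, Ube2c at 1.90% and Mki67 at 2.18% of P5. Over the 14 adult libraries Mki67 stood at 0.426 to 1.0002 CPM with a median of 0.662, and Top2a at 0.232 to 0.967 CPM with a median of 0.583.

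Cdk1 ranged over 0.116 to 0.544 CPM in the adult libraries with a median of 0.217, and Ccnb1 over 0 to 0.350 CPM with a median of 0.145, so that both lay near the level of 3 counts. Libraries with 0 counts numbered 2 for Ccnb1 and 1 each for Aurkb, Bub1 and Kif2c. The mitotic genes that kept most were Aurka at 38.6%, Kif20a at 38.2% and Plk1 at 31.9% of P5, the same 3 that fell least at 3 weeks; without the 2-month libraries Plk1 was at 35.02%. Bub1b kept 28.6% and Nusap1 28.9%.

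Among the S-phase genes Rrm2 kept least, at 7.06% of P5, followed by Cdc6 at 14.5%. Rrm2 ranged over 0.714 to 2.07 CPM in the adult libraries with a median of 1.31. Mcm4 kept 74.4%, Pcna 68.8%, Mcm7 67.0% and Rrm1 57.9%, whereas Mcm5 kept 22.6%, Mcm6 25.2% and Mcm3 28.3%. Mcm2, at 40.0%, ranged over 5.50 to 7.26 CPM with a median of 6.18, and Pcna over 38.3 to 56.6 CPM with a median of 43.3. E2f1 stood at 97.9% of P5, or 87.8% without the 2-month libraries, with an adult range of 4.32 to 13.96 CPM and a median of 7.01, its highest library being 2-month replicate 11. Per kilobase of exon, adult Pcna was at 18.1 CPM per kb, Mcm4 at 3.49 and Mcm7 at 3.28 CPM per kb, while Top2a and Mki67 were at 0.0665 and 0.0663 CPM per kb.

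**Figure D5:**
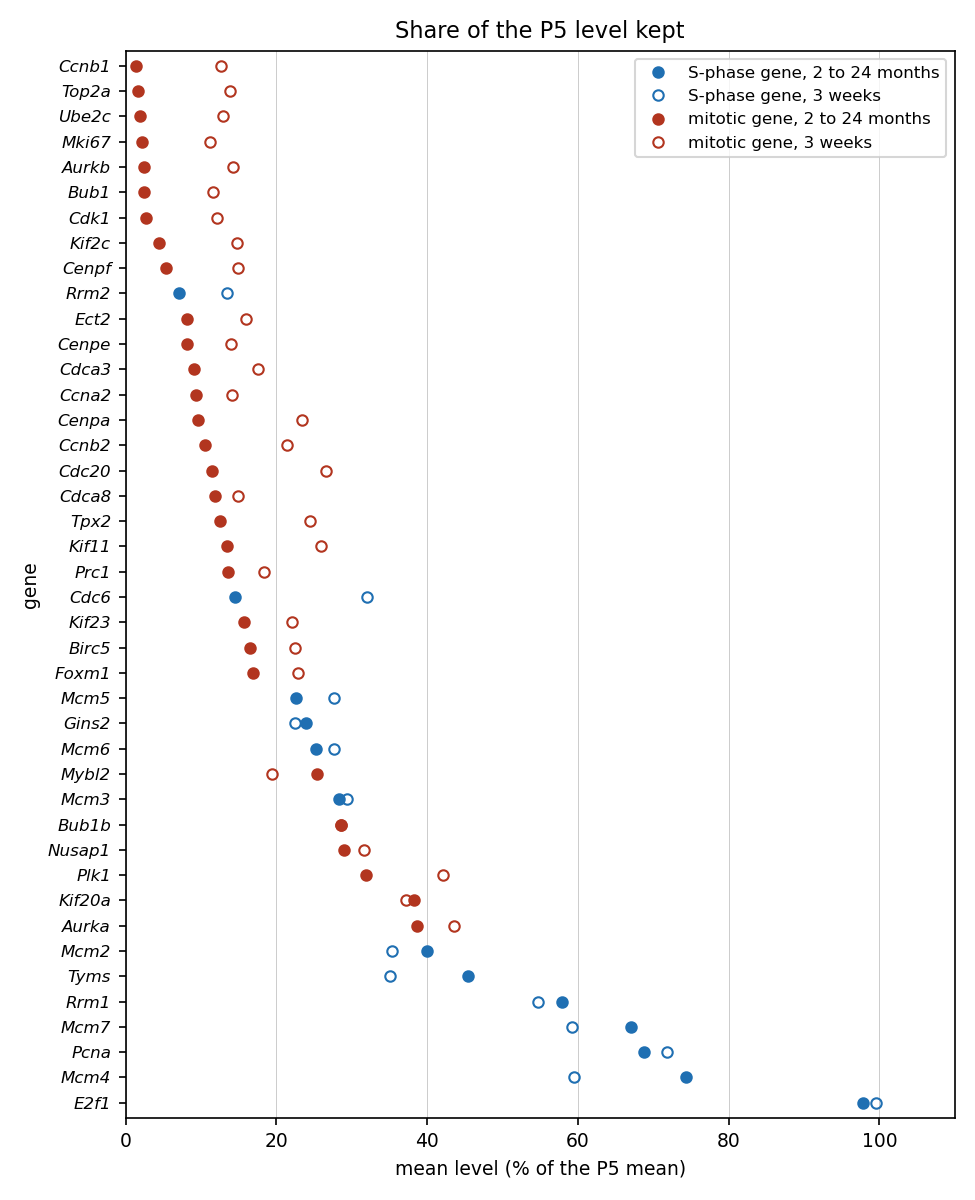
Mean CPM of the 5 adult ages as a percentage of the P5 mean for each of the 42 genes (filled circles), with the 3-week mean as open circles, coloured by phase. The genes run from Ccnb1 at 1.33% to E2f1 at 97.9%, and the 9 lowest in the adult are all mitotic.

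Between 2 and 24 months, no steady change with age was called by edgeR in the 38 genes that could be tested, where 7.43% of all genes were called. Ccnb1, Bub1, Aurkb and Kif2c did not pass the filter on low counts in the adult libraries. At an unadjusted p below 0.05, where 24.7% of all genes stood, there were 3: Rrm2 at −0.04 ± 0.01 log2 units per month (adjusted p = 0.0725), E2f1 at −0.03 ± 0.01 (adjusted p = 0.0809) and Plk1 at 0.03 ± 0.01 (adjusted p = 0.127). DESeq2 called 2, Rrm2 and E2f1, and a slope on the log2 of age called 3, Rrm2, E2f1 and Plk1. Without 24-month replicate 2 edgeR called Rrm2, and without 24-month replicate 4 it called E2f1. Over 6 to 24 months alone (11 libraries), edgeR called 0 of 36 genes tested and 0 of all 16553, with 1 of the 36, Tpx2 (0.03 ± 0.01), and 9.38% of all genes at an unadjusted p below 0.05. The slopes were then −0.03 ± 0.02 for Rrm2, −0.02 ± 0.01 for E2f1 and 0.0032 ± 0.010 for Plk1.

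Rrm2 averaged 1.78 CPM at 2 months, 1.34 at 6, 1.37 at 12, 0.861 at 18 and 1.04 CPM at 24 months. E2f1 averaged 10.1, 7.71, 5.89, 6.16 and 5.81 CPM at the same ages, and Plk1 averaged 1.81, 3.10, 3.35, 3.46 and 3.12 CPM. The 3 Plk1 libraries of 2 months, those low in hypothalamic neuron markers, were the lowest of the 14. Mcm5 (−0.02 ± 0.01), Aurka (−0.02 ± 0.01) and Mki67 (−0.02 ± 0.01) came next by p and were not called. From 2 to 24 months Mcm5 averaged 4.41, 3.64, 3.70, 3.23 and 3.52 CPM, Aurka 2.52, 2.33, 2.27, 1.94 and 1.94 CPM, and Mki67 0.800, 0.760, 0.534, 0.629 and 0.610 CPM. Of 31 other DNA replication genes 0 were called by edgeR, with 3 at an unadjusted p below 0.05, and of 31 other mitosis genes the condensin subunit Ncaph fell (−0.06 ± 0.01 log2 units per month; adjusted p = 0.0141).

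Single adult libraries varied. The mitotic sum was highest in 18-month replicate 14, at 42.7 CPM, where the other adult libraries stood at 27.3 to 38.9 CPM. This library was the highest of its age in 19 of 29 mitotic genes, among them Bub1b at 6.19 CPM. The S-phase sum was 125 to 138 CPM on average at each age from 3 weeks on, 48.1 to 53.1% of P5, and the mitotic sum was 30.8 to 34.3 CPM on average at the 5 adult ages, 10.2 to 11.4% of P5.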

How the data were processed

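Per the submitters' processing notes, HISAT2 2.1.0 and HTSeq 0.9.1 were used on the mouse build mm10 (GRCm38). The authors deposited raw counts for each gene symbol, in 1 file per library. The annotation is not given in the sources used here, nor is the strand setting. The 5 HTSeq summary lines of each file were removed. One 24-month library (replicate 5) held counts in fewer than 5000 genes and was left out, which left 28 of 29.

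CPM values were computed here from these counts with TMM-scaled library sizes. Genes were filtered with filterByExpr by age (16916 left) and fitted with the robust quasi-likelihood method of edgeR 4.0.16 in R 4.3.3, with 1 mean per age over all 28 libraries. The adult age trend was a separate fit of log2 expression on age in months over 14 libraries (16633 genes). Tests were two-sided, p-values had Benjamini-Hochberg adjustment over all genes tested, and an adjusted p below 0.05 made a call. Adjusted p-values are from edgeR unless DESeq2 1.42.0 is named. The ± of a log2 fold change or slope is its SE, and that of a CPM value is the SD over libraries. Nothing in the labels ties replicates to separate litters or days, so the p-values hold only the spread among these libraries. Deviations from the age means correlated little between same-numbered libraries of different ages (19 pairs, median correlation 0.0337, 3 above 0.1). Between libraries of different numbers the median was 0.0135 (54 pairs, 6 above 0.1). These values show no clear pairing by number, and they cannot exclude a shared litter or day.

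Gene positions and exon lengths are from GENCODE M21 (GRCm38), and promoter sequences from RefSeq (GRCm38.p6). An exon length counts once each base that lies in an exon of any transcript of the gene. Where several windows were listed for a gene, the first was used. The genes, lists, comparisons and alternatives were chosen with earlier results of these data known. One marker of each of 2 cell type lists, neural progenitors and mature oligodendrocytes, is not reported here and is left out of its list's sums and counts. Library values are given for 8 genes whatever their result (Mki67, Top2a, Mcm2, Pcna, Rrm2, Ccnb1, Cdk1, E2f1) and for the 3 S-phase and 3 mitotic genes with the smallest p in a comparison; up to 4 called genes of the other lists are named by p. The tests were tested on simulated counts with 200 changed genes: at 3 weeks against P5 the fit recovered 63% of planted 1.5-fold and 82% of planted 2-fold changes. These genes were drawn above a floor on the mean CPM, so the shares do not cover genes with lower counts. Far more genes differed between these ages in the data than were changed in the simulation. Alternatives were DESeq2 and its size factors, plain library sizes, no filter on low counts, only the libraries of the ages compared, a replicate block, and each library left out in turn.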

Additional observations from a re-analysis of the deposited data

Results flagged for a closer look

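In 88 groups of 4 libraries, 1 library stood far from the other 3 in 3 of them, where chance gives about 5%. Mcm3 at 4 weeks was highest in replicate 1, at 4.115 CPM, with the others at 3.647 to 3.697 CPM. Pcna at 5 weeks was highest in replicate 2, at 47.76 CPM, with the others at 41.3 to 42.03 CPM. Kif2c at 5 weeks was highest in replicate 4, at 0.3938 CPM, with the others at 0.1549 to 0.1869 CPM.

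The partial 24-month library (replicate 5), which no comparison uses, held 2377580 counts in 1385 genes. Of the 42 genes, 3 had counts there: Mcm3 148, Mcm6 387 and Cenpf 24. All 3 lie on chromosome 1, and the other 39 were at 0.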

How the results depend on the processing

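The 41 calls at 3 weeks against P5 and the 0 calls at 5 against 4 weeks were the same in number under every alternative run, and no gene called in a comparison of 2 ages changed direction there. The median of the mitotic genes at 5 against 4 weeks was −0.165, and 0.0015 with only the 4-week libraries without Bpifa2. At 4 against 3 weeks, where 2 genes were called, DESeq2's size factors, no filter on low counts and DESeq2 each gave 1 (Top2a, with Ube2c lost), while only the libraries of the 2 ages, the replicate block, the Bpifa2 division as a term, and the 4-week libraries with Bpifa2 alone each gave 0; leaving out 1 library gave 0 to 2. At 5 against 3 weeks, where 6 were called, the replicate block and the Bpifa2 division as a term each gave 0, DESeq2 gave 9, and leaving out 1 library gave 2 to 7, with 2 without 3-week replicate 1. At 2 months against 5 weeks (2 called), only the libraries of the 2 ages gave 1, and leaving out 1 library gave 2 to 3. At 6 months against 5 weeks (4 called), leaving out 1 library gave 1 to 4, with 1 without 5-week replicate 3 or 6-month replicate 34. For the adult age trend (0 called), DESeq2 gave 2, the log2 of age 3, and leaving out 1 library 0 to 1: Rrm2 without 24-month replicate 2, E2f1 without replicate 4. Without the 2-month and 3-week libraries the F-test after P5 gave 10 in place of 22. With plain library sizes the S-phase sum was 122.8 CPM at 3 weeks, 124.8 at 4 weeks and 130.9 at 18 months. The cause of these changes was not tested; the fits on fewer libraries have fewer samples. Same-number correlations of −0.209 to 0.131 show no clear pairing by replicate number and cannot exclude it. Why calls were lost in the replicate block was thus not settled. The block kept 41 calls at 3 weeks against P5. The fits with only part of the 4-week libraries, the F-tests without 2 months or also without 3 weeks, and the adult levels without 2 months, were chosen after seeing the data. Depth limits the adult levels of Ccnb1, Bub1, Aurkb, Kif2c, Ube2c and Cdk1, which lie near 3 counts in some libraries.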
